A study of Mus musculus with 6 samples.

Results

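Endothelial and lymphatic vessel genes were followed in mouse prostates inflamed by experimental autoimmune prostatitis (EAP), which is provoked with prostate antigens. The genes were 35 named by symbol: 19 that mark endothelial cells of all vessels, 4 arterial, 4 venous, 4 capillary and 4 lymphatic. Of these, 34 were among the 18697 genes of the deposited count table and 33 passed the filter on low counts, against 13753 genes in all. The venous gene Ackr1 was not analysed here, and the lymphatic gene Prox1 is given by its counts. One group was given VUF11207, which activates the scavenging chemokine receptor CXCR7, intraperitoneally at 5 mg per kg and day over 14 days, and the other DMSO, the vehicle, in equal amount. All 6 libraries thus came from animals with prostatitis, 3 with VUF11207 and 3 with DMSO, and no library of an uninflamed prostate was analysed here. The sources used here name neither strain nor age nor how EAP was induced.

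Endothelial cells line blood and lymphatic vessels. VEGF receptors and the angiopoietin receptor Tek drive their growth and survival, ETS and SOX transcription factors such as Erg, Fli1, Sox17 and Sox18 set their identity, and junction proteins such as VE-cadherin (Cdh5) and claudin-5 (Cldn5) seal them. Notch signalling and ephrin-B2 mark arteries, the nuclear receptor COUP-TFII (Nr2f2) and EphB4 mark veins, and Prox1 with VEGF receptor 3 (Flt4) marks lymphatic vessels. In inflamed tissue the endothelium also presents adhesion molecules such as P-selectin to leukocytes. CXCR7 itself is known from endothelial cells, where it removes the chemokine CXCL12.

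Groups are given as VUF11207 replicates 1, 2 and 3 and, for DMSO, as the unnumbered library followed by replicates 2 and 3. The unnumbered library is the table column whose name shows DMSO but not which of the DMSO samples it is. Total counts per library ranged from 20308018 to 33368058, and the 34 genes together held between 0.0125% and 0.0390% of them. The pan-endothelial genes rested on 2700, 1733 and 2138 counts with VUF11207 and on 3627, 1304 and 2242 with DMSO. Levels are given as CPM, counts relative to the library size after TMM scaling, which uses a trimmed mean of gene ratios to offset genes that dominate a library. The TMM factor was 0.426 for DMSO replicate 2 and 1.33 for the unnumbered DMSO library. CPM values of DMSO replicate 2 are therefore higher than its shares of total counts. The seminal vesicle list took 27.8%, 3.11% and 3.52% of counts with VUF11207 and 0.695%, 63.3% and 16.3% with DMSO, so the specimens differed in tissue content. The prostate label was borne out in each library by the secretory genes Pbsn and Tgm4, at 623 CPM or more.

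Most vessel genes had lower mean levels with VUF11207 than with DMSO, but no gene passed the test. Of the 33 genes tested, 26 had a negative log2 fold change (VUF11207 over DMSO), against 55.3% of all genes, and 7 a positive one, against 44.7%. Their median was -0.42 and that of all 13753 genes -0.04. None of the 33 passed a Benjamini-Hochberg adjusted p of 0.05 in edgeR's quasi-likelihood test, against 0% of all genes, and 0 of 33 had an unadjusted p under 0.05, against 1.43% of all genes (0.953% higher and 0.473% lower). The groups overlapped for each of the 33, while they did not overlap for 5.57% of all genes. DESeq2 and limma voom also called 0 of the vessel genes, at 4 and 0 genes called in all. The median log2 fold change of the 33 was -0.41 with DESeq2. With limma voom it was nearer to that of all genes, at -0.16, with 24 genes negative and 9 positive. The smallest adjusted p of any gene in edgeR's quasi-likelihood test was 0.9999, so fold changes are given with standard errors (SE) and 95% intervals. In bulk tissue, fewer vessel cells and less RNA per cell cannot be told apart.

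**Figure D1:**
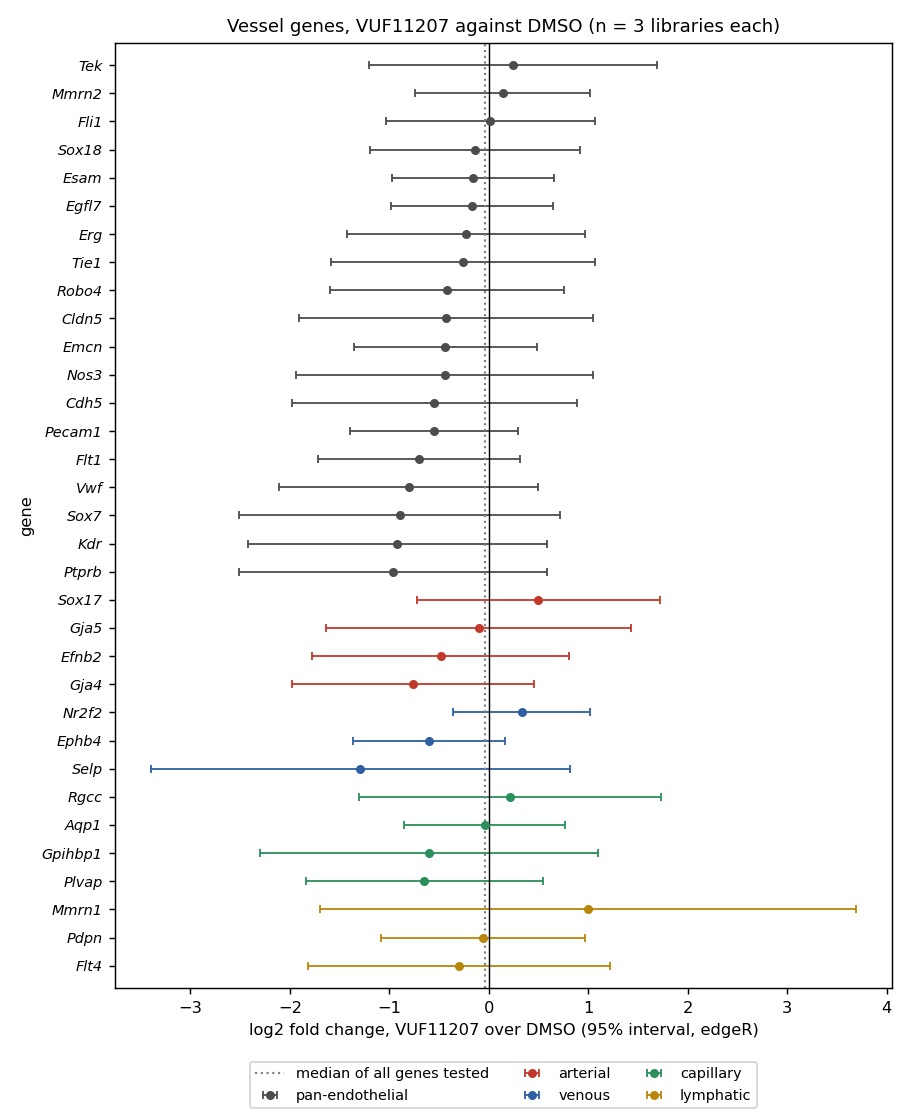
Log2 fold change of each of the 33 vessel genes tested, VUF11207 over DMSO (x axis), with its 95% interval from edgeR, ordered by role (y axis); the dotted line is the median of all genes tested. All 33 intervals cross 0, and 26 of the 33 points lie below it.

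Pecam1, the platelet endothelial adhesion molecule of endothelial junctions, is on chromosome 11 from 106654217 to 106750628 in mm10. It was at 11.4, 5.26 and 6.35 CPM with VUF11207, against 12.4, 12.4 and 8.91 CPM with DMSO. The VUF11207 libraries held the lowest CPM values, but replicate 1 lay within the DMSO range. Relative to library totals DMSO replicate 2 was lowest instead, with 176 of 33368058 counts, against 157 of 23915765 in VUF11207 replicate 2. The log2 fold change of Pecam1 was -0.55 ± 0.36 (SE), with a 95% interval from -1.39 to 0.30. Cdh5, the adhesion protein of endothelial junctions, had 8.95, 2.82 and 4.02 CPM with VUF11207 and 13.2, 5.63 and 4.23 CPM with DMSO, so VUF11207 replicate 1 exceeded all but the unnumbered DMSO library. Its log2 fold change was -0.55 ± 0.60 (SE).

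The receptors of VEGF and of angiopoietin differed in sign. Kdr, the main signalling receptor of VEGF-A, had 4.90, 1.31 and 2.74 CPM with VUF11207 and 8.14, 6.27 and 2.55 CPM with DMSO, a log2 fold change of -0.92 ± 0.63 (SE). Flt1, a decoy-like receptor that binds the same ligand tightly, had 6.11, 2.35 and 3.38 CPM with VUF11207, against 7.40, 5.99 and 5.91 CPM with DMSO, a log2 fold change of -0.70 ± 0.43 (SE). For both genes the lowest library of all 6 in TMM-scaled CPM was VUF11207 replicate 2. Tek, the angiopoietin receptor, had 2.84, 1.81 and 3.41 CPM with VUF11207 and 4.03, 1.06 and 1.68 CPM with DMSO, and its log2 fold change was 0.24 ± 0.61 (SE). Its partner receptor Tie1 was at -0.26 ± 0.56 (log2 fold change, SE). The 95% intervals of these receptors reached from -2.43 (Kdr) to 1.69 (Tek).

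For a set of pan-endothelial genes the unnumbered DMSO library stood far above the others. Ptprb, the vascular endothelial phosphatase that restrains Tek, had 6.11, 4.46 and 3.55 CPM with VUF11207 and 18.3, 6.27 and 3.04 CPM with DMSO. Vwf, which encodes the clotting protein von Willebrand factor, had 3.04, 4.39 and 2.67 CPM with VUF11207, against 10.4, 4.51 and 2.81 CPM with DMSO. Without the unnumbered library the remaining DMSO values of both genes lay within the VUF11207 range or just outside it. Cldn5 had 4.16, 4.19 and 6.72 CPM with VUF11207 and 13.1, 4.65 and 2.55 CPM with DMSO. Sox7, a SOX factor of developing vessels, had 1.11, 1.04 and 0.710 CPM with VUF11207, against 3.22, 1.41 and 0.710 CPM with DMSO. The log2 fold changes were -0.97 ± 0.65 for Ptprb, -0.81 ± 0.55 for Vwf, -0.43 ± 0.62 for Cldn5 and -0.90 ± 0.68 for Sox7 (SE). Without the unnumbered DMSO library they were 0.03, -0.11, 0.49 and -0.13, so that those of Ptprb and Cldn5 changed sign.

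Some other pan-endothelial genes varied less between libraries. Mmrn2, a matrix protein deposited by endothelium, was at 3.75 ± 0.697 CPM with VUF11207 and 3.41 ± 0.614 CPM with DMSO (SD, n = 3 each), and its highest library exceeded its lowest by 1.53 times. Esam, a tight junction adhesion molecule, averaged 7.28 ± 1.78 CPM with VUF11207 and 8.14 ± 2.42 CPM with DMSO (SD, n = 3 each). Egfl7, a secreted vessel protein, averaged 7.30 ± 1.05 CPM with VUF11207 and 8.23 ± 3.22 CPM with DMSO (SD, n = 3 each). Unlike Ptprb and Vwf, Esam and Egfl7 had their lowest DMSO value in the unnumbered library, at 5.58 and 5.88 CPM. The ETS factors Erg and Fli1 had log2 fold changes of -0.23 ± 0.50 and 0.02 ± 0.44 (SE), and Sox18, a SOX factor of blood and lymphatic vessels, one of -0.14 ± 0.44. None of these 3 values exceeded its SE. The remaining genes of the group were Emcn (-0.44 ± 0.39), which encodes the mucin endomucin, Robo4 (-0.42 ± 0.49), which encodes a receptor that stabilises vessels, and Nos3 (-0.45 ± 0.63), which encodes endothelial nitric oxide synthase. Exons of Nos3 overlap the antisense gene Gm15587 over 25.2% of their length, and without a known strand setting of the counting, reads of both cannot be told apart. Smaller overlaps touch Egfl7 (Gm20532, 7.37%), Selp (Gm16548, 9.93%) and Nr2f2 (B130024G19Rik, 7.46%). Of the 19 pan-endothelial genes, 16 were negative and 3 positive, with a median log2 fold change of -0.43.

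**Figure D2:**
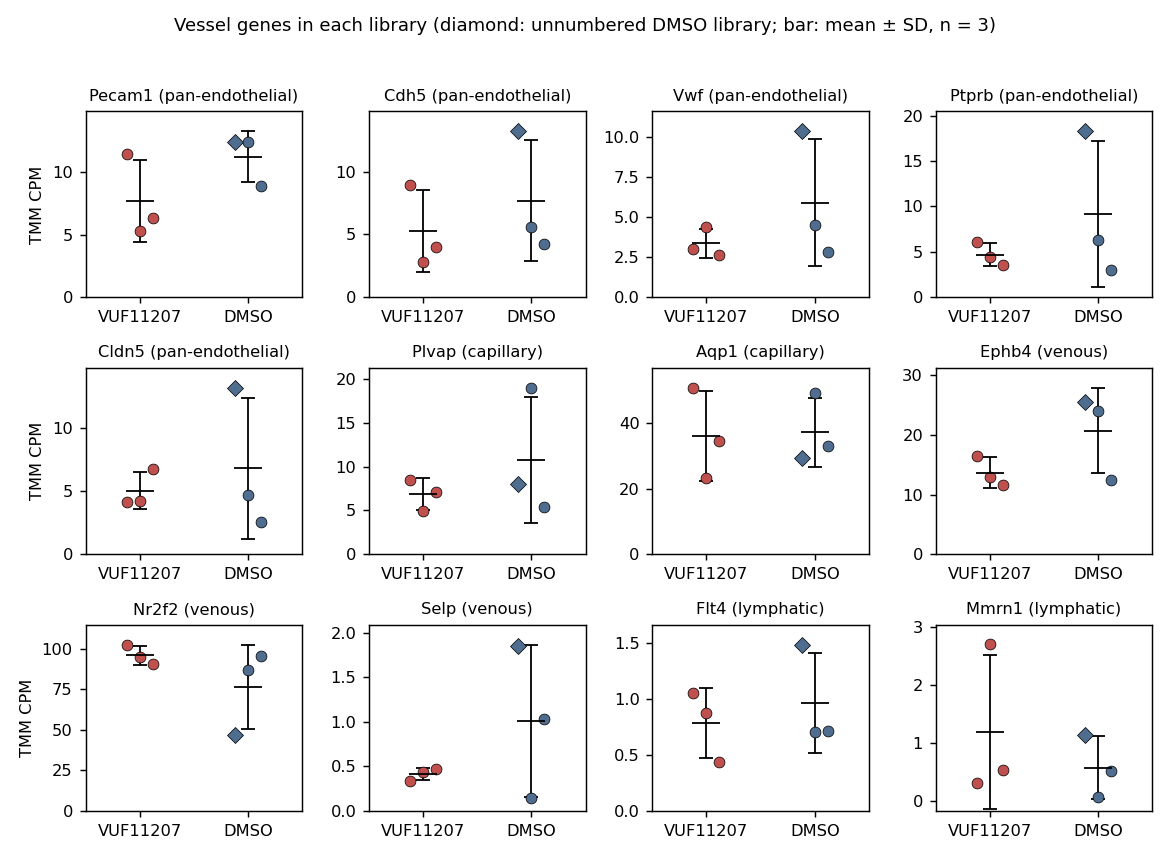
Level of 12 vessel genes in each library (TMM CPM, linear y axes) for VUF11207 and DMSO; points are libraries, the diamond is the unnumbered DMSO library, and bars give the mean ± SD (n = 3). In the panels of Cdh5, Vwf, Ptprb, Cldn5, Selp and Flt4 the diamond lies above all other points, in that of Nr2f2 below them.

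Promoters are shown for a pair of pan-endothelial genes, Emcn and Robo4, because ETS factors such as Erg and Fli1, both present in each library, are known regulators of endothelial genes. RefSeq promoter sequences (GRCm38.p6, 250 bases before to 50 after the start) were at hand for 21 of the 34 genes. Capitals mark a match to the ETS sequence CAGGAAG or its reverse complement.
Emcn (chr3:137340828-137341127, plus strand): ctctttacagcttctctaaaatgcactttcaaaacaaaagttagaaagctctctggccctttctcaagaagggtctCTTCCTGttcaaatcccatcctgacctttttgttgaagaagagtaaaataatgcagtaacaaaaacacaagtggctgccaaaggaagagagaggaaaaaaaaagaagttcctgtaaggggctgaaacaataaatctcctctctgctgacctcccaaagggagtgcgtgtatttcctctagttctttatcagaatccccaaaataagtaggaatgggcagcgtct
Robo4 (chr9:37401722-37402021, plus strand): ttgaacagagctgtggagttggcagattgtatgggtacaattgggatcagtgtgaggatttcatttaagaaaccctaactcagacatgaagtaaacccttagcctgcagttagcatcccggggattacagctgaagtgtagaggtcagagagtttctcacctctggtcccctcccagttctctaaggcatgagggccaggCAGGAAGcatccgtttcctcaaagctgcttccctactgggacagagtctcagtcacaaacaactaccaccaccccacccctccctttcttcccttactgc
The match in Emcn starts 174 bases before the RefSeq gene start and lies on the minus strand, and that in Robo4 starts 50 bases before it on the plus strand. The GENCODE M21 model of Robo4 begins earlier, at 37401897, so the match lies inside that model. Searched on both strands, CAGGAAG or CCGGAAG was found for 4 of the 21 vessel genes (Egfl7, Emcn, Erg and Robo4, 19.0%), against 23.1% of the 27025 genes with a promoter entry. The SOX sequence AACAAT was found for 4 of the 21 (Emcn, Erg, Mmrn1 and Tek, 19.0%), against 12.2% of all genes. These matches describe the letters in this window and no binding.

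Arterial genes differed in sign. Gja4, which encodes the gap junction protein connexin 37, had 1.08, 1.51 and 1.62 CPM with VUF11207, against 2.29, 3.45 and 1.45 CPM with DMSO, a log2 fold change of -0.76 ± 0.51 (SE). Its sign was the same with any 1 library left out. Relative to library totals DMSO replicate 2 was not the highest for Gja4, with 49 of 33368058 counts, against 62 of 20308018 in the unnumbered DMSO library. Gja5, which encodes connexin 40, was at 0.980, 1.44 and 0.507 CPM with VUF11207 and 1.52, 0.986 and 0.646 CPM with DMSO, so the groups covered nearly the same range. Efnb2, the arterial ephrin that EphB4 binds, had 22.4, 18.0 and 8.75 CPM with VUF11207 and 31.7, 8.66 and 28.3 CPM with DMSO, a log2 fold change of -0.48 ± 0.54 (SE). The SOX factor Sox17 had 2.26, 1.91 and 2.47 CPM with VUF11207 and 1.37, 0.915 and 2.39 CPM with DMSO, a positive log2 fold change of 0.50 ± 0.51 (SE). Exons of Sox17 overlap the antisense transcript Gm37587 over 16.8% of their length. The 4 genes had a median log2 fold change of -0.29, which was 0.05 without the unnumbered DMSO library and 0.02 without VUF11207 replicate 3.

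Among venous genes, Ephb4 had the smallest unadjusted p of all 33 vessel genes, at 0.105 in edgeR's test. This receptor of ephrin-B2 had 16.5, 12.9 and 11.6 CPM with VUF11207, against 25.6, 24.0 and 12.5 CPM with DMSO. VUF11207 replicates 1 and 2 exceeded DMSO replicate 3, so in TMM-scaled CPM the groups overlapped in their low range. Relative to library totals DMSO replicate 2 was not high. It held 341 of 33368058 counts, the lowest share, and VUF11207 replicate 3 held 342 of 25979464. The log2 fold change of Ephb4 was -0.60 ± 0.32 (SE) with a 95% interval from -1.36 to 0.16. Nr2f2, the venous transcription factor that is also known from stromal cells, had 102, 95.1 and 90.9 CPM with VUF11207 and 47.1, 87.0 and 95.5 CPM with DMSO. Its VUF11207 values were close together, and the unnumbered DMSO library alone stood low. The log2 fold change of Nr2f2 was 0.33 ± 0.29 (SE), and 0.08 without that library.

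Selp, which encodes P-selectin, the adhesion molecule that endothelium and platelets present to leukocytes, rested on 10, 13 and 14 counts with VUF11207 and on 50, 2 and 32 counts with DMSO. This corresponds to 0.338, 0.436 and 0.473 CPM with VUF11207 and to 1.85, 0.141 and 1.03 CPM with DMSO, values on both sides of the VUF11207 range. Its log2 fold change of -1.29 ± 0.89 (SE, 95% interval from -3.40 to 0.82) was the most negative of the vessel genes. Markers of platelets and red blood cells varied over the same libraries. The level of a list in a library is the average, over its tested genes, of log2 CPM after subtracting each gene's own 6-library mean. The level of the platelet list (5 of 6 genes tested) was -0.49, 0.48 and -0.50 with VUF11207 and 0.72, -0.50 and 0.29 with DMSO, and its summed level ranged from 8.52 to 13.5 CPM with VUF11207 and from 13.9 to 21.7 CPM with DMSO. The level of the red blood cell list (6 of 7 genes tested) was -1.45, 0.71 and -2.03 with VUF11207, against 2.44, -0.81 and 1.15 with DMSO, and its summed level was 81.0 to 501 CPM with VUF11207 and 187 to 1844 CPM with DMSO. No gene of either list was at 0 in all 6 libraries. The most abundant platelet gene, Itga2b, was highest in DMSO replicate 2 at 18.4 CPM and made up most of the summed 21.7 CPM there. Pf4 and Ppbp were at 2.18 and 0.845 CPM in that library. Hba-a1, a hemoglobin gene with a near-identical copy, was highest in the unnumbered library at 692 CPM. The part of blood in the values of Selp and Vwf was not tested.

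Of the 4 capillary genes, Gpihbp1 was highest in the unnumbered DMSO library, as Ptprb and Vwf were, and the other 3 were not. Plvap, which encodes the diaphragm protein of fenestrated capillaries, is on chromosome 8 from 71497765 to 71511752. It had 8.51, 4.93 and 7.10 CPM with VUF11207, against 7.95, 18.9 and 5.43 CPM with DMSO, so DMSO replicate 2 stood far above the rest after TMM scaling. Relative to library totals DMSO replicate 2 did not, with 269 Plvap counts of 33368058. The unnumbered DMSO library had 215 of 20308018, and VUF11207 replicate 1 had 252 of 29311438. The log2 fold change of Plvap, -0.65 ± 0.50 (SE), was 0.05 without DMSO replicate 2. Aqp1, the water channel of capillaries that epithelia also express, had 50.7, 23.2 and 34.5 CPM with VUF11207 and 29.4, 49.2 and 33.1 CPM with DMSO, a log2 fold change of -0.04 ± 0.34 (SE). Rgcc, a cell cycle regulator found in capillary endothelium, had 4.86, 1.21 and 2.91 CPM with VUF11207 and 1.48, 3.87 and 2.42 CPM with DMSO, a log2 fold change of 0.21 ± 0.64 (SE). In TMM-scaled CPM, Plvap, Aqp1 and Rgcc were each highest in VUF11207 replicate 1 or DMSO replicate 2, the libraries with the largest seminal vesicle share within their groups. The part of seminal vesicle tissue in these values was not tested. Gpihbp1, which carries lipoprotein lipase to the capillary surface, had 3.24, 0.536 and 1.22 CPM with VUF11207 and 3.40, 2.32 and 1.87 CPM with DMSO, a log2 fold change of -0.60 ± 0.71 (SE). The level of the capillary list was 0.60, -0.97 and -0.13 with VUF11207 and -0.02, 0.68 and -0.15 with DMSO. Its median log2 fold change of -0.32 became 0.13 without DMSO replicate 2 and 0.0075 without VUF11207 replicate 2.

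Lymphatic genes rested on few counts. Prox1, the transcription factor that sets lymphatic identity, had 7, 8 and 6 counts with VUF11207 and 0, 0 and 12 counts with DMSO, too few for the filter. A count of 0 allows up to 0.111 CPM in the unnumbered DMSO library and 0.211 CPM in DMSO replicate 2, while the VUF11207 libraries were at 0.203 to 0.268 CPM and DMSO replicate 3 at 0.388 CPM. These limits cover counting error only. Flt4, which encodes VEGF receptor 3, had 1.05, 0.872 and 0.439 CPM with VUF11207 and 1.48, 0.704 and 0.710 CPM with DMSO, a log2 fold change of -0.30 ± 0.64 (SE). Pdpn, the membrane glycoprotein podoplanin, which fibroblasts and other cells also carry, was nearly level, at 1.98 ± 0.264 CPM with VUF11207 and 2.06 ± 0.450 CPM with DMSO (SD, n = 3 each).

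Mmrn1, a matrix protein of lymphatic endothelium and platelets, rested on 9, 81 and 16 counts with VUF11207 and 31, 1 and 16 counts with DMSO. Its levels of 0.304, 2.72 and 0.541 CPM with VUF11207 and 1.15, 0.0704 and 0.517 CPM with DMSO were set by VUF11207 replicate 2 at the upper and DMSO replicate 2 at the lower end. The log2 fold change of 0.997 ± 1.13 (SE) was -0.47 without VUF11207 replicate 2 and 1.90 without the unnumbered DMSO library. Of 7 further lymphatic genes chosen by name, 6 were tested, 3 positive and 3 negative, and the smallest p belonged to Reln (0.52 ± 0.68) and Stab2 (0.56 ± 1.195; log2 fold change, SE). Ccl21a, the chemokine that lymphatic endothelium secretes, had 5.47, 17.0 and 5.07 CPM with VUF11207 and 15.4, 1.48 and 4.26 CPM with DMSO. Ccl21a has near-identical copies, so its value is uncertain. Lyve1, the hyaluronan receptor of lymphatic endothelium and some macrophages, had 2.20, 6.81 and 1.42 CPM with VUF11207, against 5.84, 1.69 and 4.10 CPM with DMSO.

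VUF11207 replicate 2 and the unnumbered DMSO library, which were highest for Mmrn1, Ccl21a and Lyve1, also had the highest levels of several other cell lists, among them T cells, platelets, smooth muscle and fibroblasts. The level of the T cell list (7 of 8 genes tested) was -0.70, 0.97 and -0.70 with VUF11207 and 1.19, -0.75 and -0.01 with DMSO. Its summed level ranged from 5.20 to 17.3 CPM with VUF11207 and from 5.49 to 17.1 CPM with DMSO, no gene was at 0 in all 6 libraries, and its most abundant gene, Cd3g, was highest in VUF11207 replicate 2 at 7.54 CPM. The smooth muscle list (10 of 10 genes tested) had levels of 0.29, 1.26 and -0.998 with VUF11207 and 0.87, -0.72 and -0.71 with DMSO, and its summed level ranged from 4283 to 20049 CPM with VUF11207 and from 4577 to 15926 CPM with DMSO. The fibroblast list (8 of 8 tested) had levels of 0.60 in VUF11207 replicate 2 and 0.30 in the unnumbered DMSO library, and the mesothelium list (2 of 6 tested) 0.63 and 0.60. The 2 tested mesothelium genes went opposite ways there. Wt1 was at 5.23 and 6.99 CPM in these libraries, its highest values. Krt19 was at 273 and 196 CPM, its lowest values. The lymphatic vessel list had levels of -0.16, 0.67 and -0.23 with VUF11207 and 0.68, -0.77 and -0.20 with DMSO. Its mean level differed by 0.19 (VUF11207 minus DMSO), while the median log2 fold change of its 3 tested genes was -0.06, and 0.15 without the unnumbered DMSO library. The part of T cells, smooth muscle or other cells in these values was not tested.

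**Figure D3:**
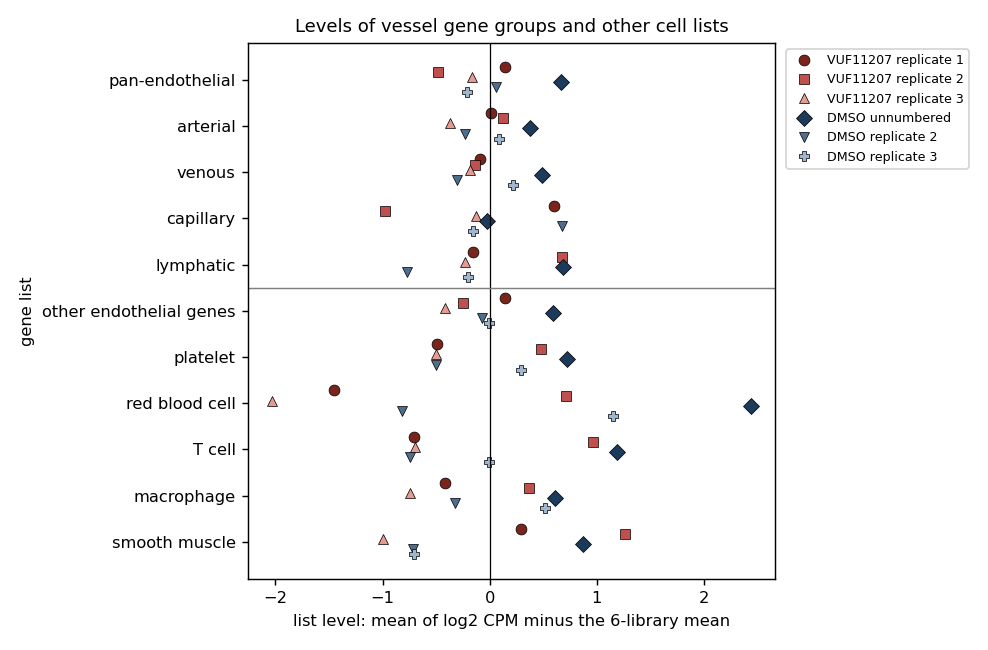
Level of each gene list per library (x axis, on the log2 scale, centred on the 6 libraries) for vessel gene groups (above the line) and other lists (y axis); each symbol is 1 library. The unnumbered DMSO library has the highest level of the pan-endothelial list (0.67), of the other endothelial genes (0.59) and of the red blood cell list (2.44), and VUF11207 replicate 2 the lowest of the capillary list (-0.97).

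Within a library, levels of different genes were compared per kb of exon (CPM per kb, exon union of the GENCODE M21 models). Aqp1 and Nr2f2 had the highest medians over the 6 libraries, at 12.9 and 10.8 CPM per kb, and both are known outside endothelium. Plvap followed at 3.79, Ephb4 at 3.17 and Cldn5 at 3.12 CPM per kb, whose ranges over the libraries overlapped. Pecam1 was at 1.63, Kdr at 0.423 and Vwf at 0.231 CPM per kb. At the low end stood Selp at 0.103, Flt4 at 0.0961, Mmrn1 at 0.0901 and Prox1 at 0.0262 CPM per kb.

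Many vessel genes were highest in the same library. The unnumbered DMSO library was the highest of the 6 for 21 of the 33 genes (63.6%), against 28.2% of all genes, and for 14 of the 19 pan-endothelial genes. VUF11207 replicate 2 was the lowest for 13 of the 33. The share of all genes lowest in that library was not determined, so this count is not read as a trait of the vessel genes. The level of the pan-endothelial list was 0.14, -0.49 and -0.17 with VUF11207 and 0.67, 0.06 and -0.21 with DMSO, so only the unnumbered library lay above all VUF11207 libraries. Subtracting the mean log2 level of the pan-endothelial genes in the same library (each gene itself left out) made the spread within groups smaller for 22 of the 33 genes (66.7%) and for 8 of the 14 outside that list (57.1%), against 17.4% of all genes tested. The median within-group SD of log2 CPM did not become smaller, at 0.60 after and 0.58 before the subtraction for the 33 genes, and at 0.66 after and 0.61 before it for the 14. For all genes tested it was 0.59 after and 0.44 before, so the vessel genes began with the larger spread and ended near that of all genes. These shares and medians are a description over 6 libraries that also differ in depth and tissue content.

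**Figure D4:**
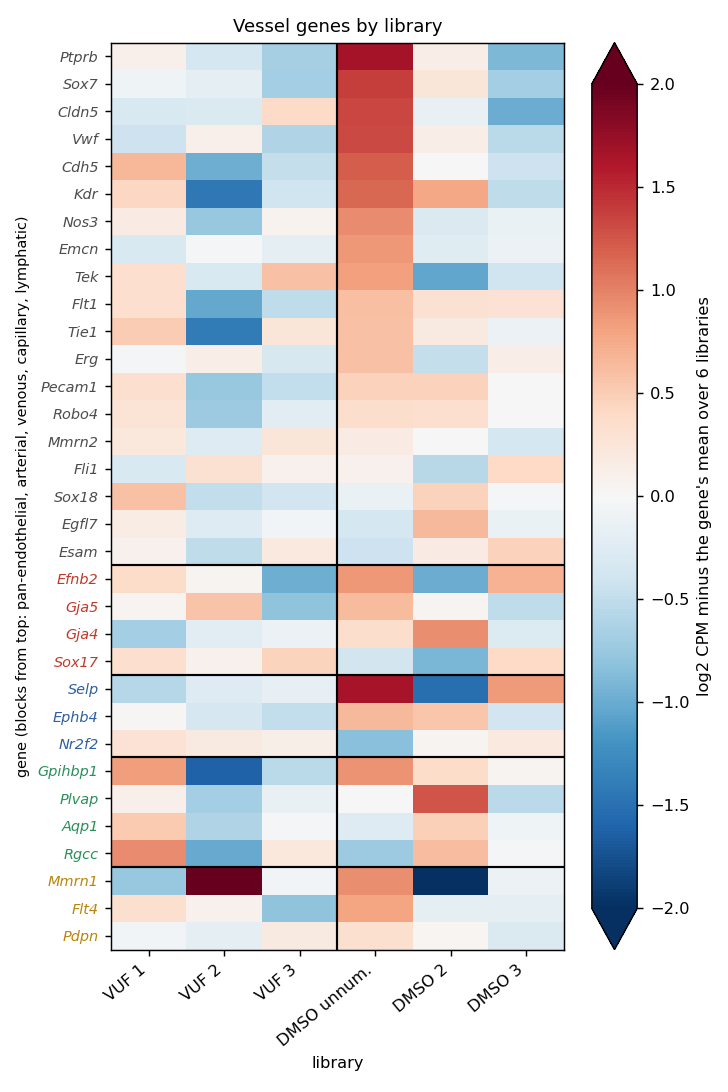
Log2 CPM of each of the 33 vessel genes minus its mean over the 6 libraries (colour, saturated beyond the ends of the scale), by gene (rows, in blocks by role) and library (columns, VUF11207 left of the black line and DMSO right of it). Most pan-endothelial genes are red in the unnumbered DMSO library, while Plvap and Gja4 are red in DMSO replicate 2 and Mmrn1 in VUF11207 replicate 2.

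Leaving out the unnumbered DMSO library brought the vessel genes near the background. Then 18 of the 33 were negative (54.5%), against 49.7% of all genes, and the median log2 fold change was -0.07. With each library left out in turn, 19 of the 33 genes changed sign at least once (57.6%), against 58.6% of all genes. Those that stayed negative were Pecam1, Kdr, Flt1, Sox7, Robo4, Vwf, Gja4, Efnb2, Ephb4, Selp and Gpihbp1 (11 genes), and Mmrn2, Sox17 and Nr2f2 (3 genes) stayed positive. Scaling by library totals moved the median of all genes from -0.04 to 0.14 and left 20 of the 33 vessel genes negative, with a median of -0.24.

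**Figure D5:**
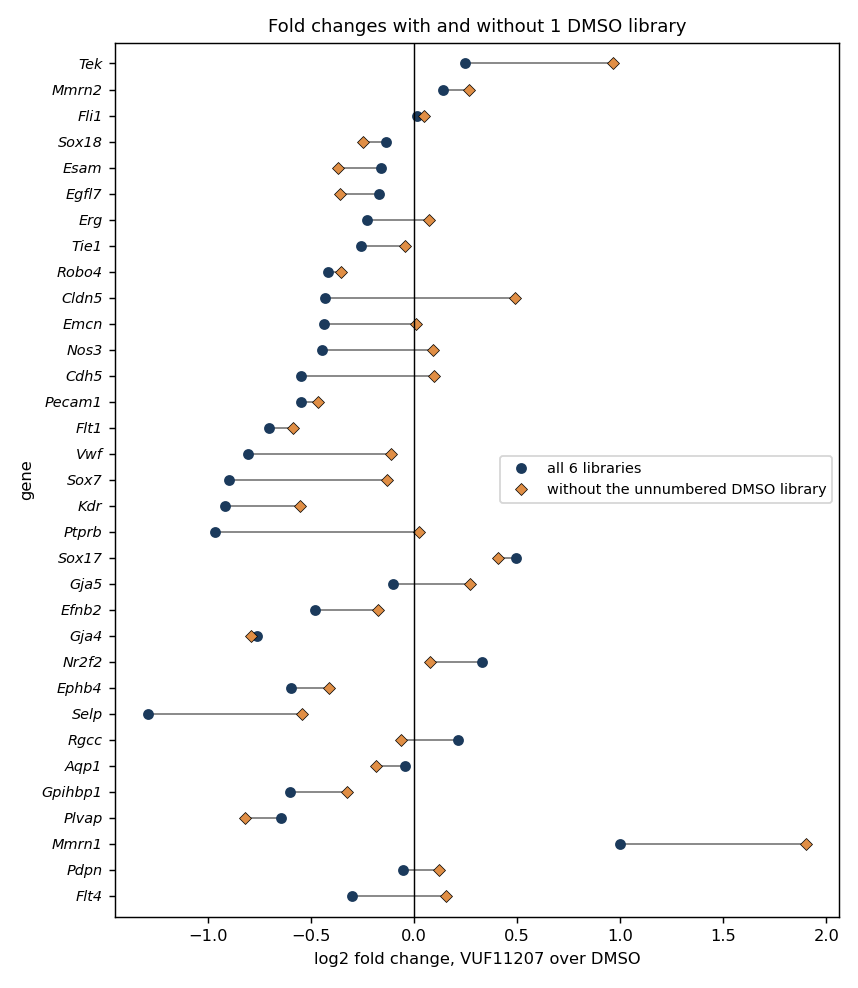
Log2 fold change of each of the 33 vessel genes (x axis, VUF11207 over DMSO) with all 6 libraries (circles) and without the unnumbered DMSO library (diamonds), by gene (y axis). Ptprb moves to 0.03 and Cldn5 to 0.49, while Flt1 stays at -0.59 and Ephb4 at -0.41.

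Other genes of the vessel pathways, taken from lists chosen by name, were tested in the same fit, and 0 of them had an adjusted p under 0.05 in edgeR's quasi-likelihood test. Of 24 further endothelial genes 23 were tested, 16 negative and 7 positive with a median log2 fold change of -0.38. Klf2, a flow-responsive transcription factor, was at -0.67 ± 0.34, and Gata2, a factor of endothelial and blood cells, at -1.28 ± 0.72 (log2 fold change, SE). Gata2 had 111, 87.9 and 42.2 CPM with VUF11207 and 174, 364 and 48.2 CPM with DMSO. It was highest in DMSO replicate 2, the library richest in seminal vesicle counts. The highest value of any pan-endothelial gene was 18.3 CPM (Ptprb, unnumbered DMSO library). The part of other cells in the values of Gata2 was not tested. The list of further endothelial genes had levels of 0.14, -0.25 and -0.42 with VUF11207 and 0.59, -0.07 and -0.0037 with DMSO, again highest in the unnumbered library. Adgrl4, an adhesion receptor of endothelium, was lower in all VUF11207 libraries, at 2.91, 0.503 and 2.20 CPM, than in the DMSO libraries, at 3.85, 4.58 and 3.13 CPM. It was the only one of the 23 genes without overlap between the groups, and 2.52% of all genes were lower in this way. Relative to library totals the groups overlapped for Adgrl4. DMSO replicate 2 held 65 of 33368058 counts, a lower share than the 86 of 29311438 in VUF11207 replicate 1.

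Among growth factors and co-receptors, 7 of 11 tested genes were positive and 4 negative, with a median log2 fold change of 0.06. Pgf, the placental growth factor that binds Flt1, had 2.80, 0.972 and 2.47 CPM with VUF11207, against 0.0370, 0.986 and 1.03 CPM with DMSO. Angpt2, the angiopoietin that opposes Tek signalling, had 3.78, 2.98 and 7.13 CPM with VUF11207, against 0.222, 1.97 and 3.58 CPM with DMSO. For both genes the unnumbered DMSO library was the lowest of the 6, the reverse of most pan-endothelial genes. The values there rested on 1 count for Pgf and 6 counts for Angpt2. The log2 fold changes were 1.61 ± 1.03 for Pgf and 1.26 ± 0.90 for Angpt2 (SE).

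In the Notch pathway 8 of 13 tested genes were positive and 5 negative. Dll4, the Notch ligand of arterial and sprouting endothelium, had 1.28, 1.17 and 0.946 CPM with VUF11207, against 3.14, 2.25 and 1.42 CPM with DMSO, with no overlap between the groups, VUF11207 being lower, again beside 2.52% of all genes. Relative to library totals the groups overlapped for Dll4. DMSO replicate 2 held 32 of 33368058 counts, the lowest share, and VUF11207 replicate 3 held 28 of 25979464. The log2 fold change of Dll4 was -0.999 ± 0.50 (SE), and the unadjusted edgeR p was 0.0888. Hey2, an effector of Notch in arteries, was higher in all VUF11207 libraries, as were 3.05% of all genes. It was at 0.405, 0.872 and 0.372 CPM with VUF11207 and 0.259, 0.352 and 0.129 CPM with DMSO, a log2 fold change of 1.18 ± 0.76 (SE). These levels rested on few counts, 12, 26 and 11 with VUF11207 and 7, 5 and 4 with DMSO.

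Of the nitric oxide, caveola and coagulation genes, 9 of 16 were positive and 7 negative. Ece1, which activates endothelin, and Cavin1, a coat protein of caveolae, were at -0.35 ± 0.29 and 0.39 ± 0.34 (log2 fold change, SE). Leukocyte adhesion genes had 1 of 5 tested members positive and 4 negative. In that list Icam1, a leukocyte adhesion molecule, had 3.72, 11.5 and 4.02 CPM with VUF11207, against 15.0, 4.51 and 5.62 CPM with DMSO. Icam1 and Vcam1, another such molecule, were at -0.39 ± 0.64 and -0.34 ± 0.54 (log2 fold change, SE). Sele, the E-selectin gene, had 0 counts in 5 libraries and 3 counts in DMSO replicate 3. Capillary lipid uptake genes had 1 of 5 tested members positive and 4 negative, with Fabp4, a fatty acid binding protein of capillaries and adipocytes, at 0.93 ± 0.71 and the transcription factor Tcf15 at -0.73 ± 0.73 (log2 fold change, SE). Pericyte genes, markers of the cells that wrap small vessels, had 3 of 7 tested members positive and 4 negative, with a level of 0.42, 0.36 and -0.99 with VUF11207 and 0.61, -0.38 and -0.02 with DMSO. Their most abundant gene, Mcam, which endothelium also expresses, had 30.7, 38.0 and 8.62 CPM with VUF11207 and 43.6, 13.7 and 17.1 CPM with DMSO.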

How the data were processed

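RNA was taken up in TRIzol and libraries made with the VAHTS Universal V6 kit, per the labels' protocols. The authors deposited whole-number counts of reads for each gene, without normalisation, from fastp, HISAT2 and HTSeq on mm10, per the submitters' processing notes. No tool version, annotation, strand setting or rule for multi-mapping reads is named there. The table holds 18697 genes in 6 libraries, and 5 columns equal a sample's own file. The remaining column shows DMSO in its name and no sample's number. Each row had a gene name. Libraries are not tied to single mice by the labels, so p-values reflect only how far these samples vary, which may be technical. No pair of libraries within a group agreed within counting error.

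Library size used TMM, and low counts were removed by filterByExpr (edgeR 4.0.16). VUF11207 was set against DMSO by edgeR's quasi-likelihood test (robust, two-sided), with Benjamini-Hochberg adjustment over 13753 genes and a threshold of 0.05. The SE was derived from the fold change and its F statistic. Log2 CPM had a prior count of 2. Scripts were tested on simulated data. Depth ranged from 20308018 to 33368058 counts, and floors for a count of 0 used 3 counts. Alternatives were DESeq2 1.42.0, limma 3.58.1 voom with quality weights, other scaling, other filters, a replicate block and fewer libraries, in R 4.3.3 and Python 3.11.15. The libraries' numbers 2 and 3 do not pair them (r of deviations -0.33 and 0.05).

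The vessel genes and the 25 gene lists were chosen with earlier results of these data known. The rule for named genes covers the textbook gene of each group, its smallest p, its highest and lowest level and any gene without overlap. For each pathway list it covers the 2 genes with the smallest p. Not all of these are given by values per library. Some, such as Nos3, Klf2 and Ece1, are given by fold change and SE alone, and Pdpn by means and SD. Genes shown beyond this rule were picked after their values were seen. Positions and exon lengths are from GENCODE M21 on mm10, which may differ from the annotation of the table.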

Additional observations from a re-analysis of the deposited data

How the results depend on the processing

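No vessel gene was called under any alternative. Genes called in all were 0 with edgeR's quasi-likelihood test, 3 with scaling by library totals, 2 with scaling on pan-endothelial counts and 4 with DESeq2, while limma voom called 0 and 180 genes had an unadjusted p under 0.05 there. Scaling on pan-endothelial counts is built from 19 of the 33 vessel genes and moved the median of all genes to 0.35, so signs under it say nothing about their stability. It gave medians of 0.080 (pan-endothelial), 0.18 (arterial), -0.15 (venous) and 0.082 (all vessel genes). The venous median was -0.14 when a CPM of at least 1 was asked for in 3 libraries. That filter left out Selp, so this median rested on Ephb4 and Nr2f2 alone. The venous median was -0.98 without the libraries richest in skeletal muscle counts (VUF11207 replicate 1 and DMSO replicate 3). With 1 library left out, medians ranged from -0.59 to -0.044 (pan-endothelial), from -0.52 to 0.047 (arterial) and from -0.54 to -0.066 (all vessel genes). The cause of the other shifts was not tested.

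Values of single genes with the other sign are given here as log2 fold changes. Scaling by totals gave Esam 0.037, Egfl7 0.20, Sox18 0.12, Gja5 0.064, Aqp1 0.24 and Pdpn 0.11. Scaling on pan-endothelial counts, with that shift of all genes, gave Tie1 0.080, Emcn 0.082, Esam 0.10, Egfl7 0.16, Cldn5 0.19, Erg 0.23, Sox18 0.15, Nos3 0.0057, Gja5 0.45, Aqp1 0.24, Flt4 0.18 and Pdpn 0.38. Under limma voom Cldn5 was at 0.35, Fli1 at -0.071, Gja5 at 0.014 and Pdpn at 0.10. Without the libraries richest in seminal vesicle counts (VUF11207 replicate 1 and DMSO replicate 2), Tek was at -0.10, Egfl7 at 0.10 and Fli1 at -0.036. Without those richest in skeletal muscle counts, Esam was at 0.022, Mmrn2 at -0.026 and Rgcc at -0.34.

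With a replicate block over the libraries numbered 2 and 3, which the numbers do not pair, 0 genes were called and 835 had an unadjusted p under 0.05. The venous median was then 0.032, and Emcn was at 0.082, Cldn5 at 0.64, Erg at 0.078, Gja5 at 0.12, Selp at 0.032, Rgcc at -0.68 and Pdpn at 0.15.

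With 1 library left out in turn, the log2 fold change ranged from -1.13 to 0.10 (Cdh5), from -0.072 to 0.96 (Tek), from -0.58 to 0.14 (Tie1), from -1.38 to 0.026 (Ptprb), from -0.62 to 0.0072 (Emcn), from -0.37 to 0.062 (Esam), from -0.36 to 0.20 (Egfl7), from -0.82 to 0.49 (Cldn5) and from -0.45 to 0.070 (Erg). It ranged from -0.20 to 0.25 (Fli1), from -0.54 to 0.078 (Sox18), from -0.65 to 0.089 (Nos3), from -0.49 to 0.27 (Gja5), from -0.97 to 0.046 (Plvap), from -0.30 to 0.63 (Rgcc), from -0.34 to 0.22 (Aqp1), from -0.52 to 0.15 (Flt4), from -0.20 to 0.12 (Pdpn) and from -0.47 to 1.90 (Mmrn1).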
